A study of Mus musculus with 6 samples.

Results

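Zinc and copper handling in pancreatic islets was described through 34 genes whose transcripts were measured by RNA sequencing on 2 diets. The genes were taken by name from the 48321 gene names of the expression table: every member of the Slc30 family of zinc transporters (10 genes) and of the Slc39 family (14 genes), the 4 metallothioneins Mt1 to Mt4, Mtf1 and Mtf2, and the copper transport genes Slc31a1, Slc31a2, Atp7a and Atp7b. The rule uses names alone, but it was set with earlier results of these data known. Islets came from C57BL6 mice that carry the label WT. High-fat samples were from mice started at 3 months of age on high-fat feed (60 percent of calories as fat) for 4 months, and chow samples were from mice on normal chow, for which the labels used here give neither age nor feeding time. There were 3 samples per diet. The comparison asks how islet transcripts differ between the diets.

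Zinc is unusually abundant in beta cells because insulin is stored in its secretory granules as a zinc-bound crystal. Slc30 proteins (ZnT) move zinc out of the cytosol, across the plasma membrane or into organelles, and Slc39 proteins (ZIP) move it into the cytosol from outside or from organelles. Metallothioneins are small cysteine-rich proteins that bind zinc and copper in the cytosol. The transcription factor MTF1 senses free zinc, activates the metallothionein genes and the exporter gene Slc30a1 through short metal response elements, and is known to repress the importer gene Slc39a10. Copper enters cells through Slc31a1 (CTR1) and is pumped into the secretory pathway or out of the cell by the ATPases Atp7a and Atp7b.

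Expression is given in CPM (reads of a gene scaled to its library's total), from libraries of 18.8 to 35.1 M implied reads. The CPM of all genes in the expression table summed to 841705 and 674482 in chow 1 and chow 3. In high-fat 1, 2 and 3 the sums were 963615, 832416 and 879301. Shares of the summed CPM are taken of these unequal sums. The column of chow 2 was the arithmetic mean of chow 1 and chow 3 in 48321 of 48321 rows, so it was left out and the diets were compared with 2 chow and 3 high-fat libraries. Beta cell markers were abundant in every library (insulin transcripts made up 5.5% to 9.62% of the summed CPM), and no marker of the 9 cell types examined was at 0 in all 5 libraries. Acinar markers, from the exocrine tissue that surrounds islets, made up 26.7% and 10.4% of the summed CPM in chow 1 and chow 3 and 11.5%, 1.56% and 4.6% in high-fat 1, 2 and 3. The small structured RNAs Rn7sk, Rpph1, Rmrp, Rn7s1 and Rn7s2 summed to 9.12 and 16 CPM in chow against 31300, 26500 and 20800 CPM in high-fat libraries. The chow and high-fat libraries therefore differed in the recovery of these RNAs as well as in diet, and the effect of library type and the effect of diet cannot be told apart in any comparison given here. In whole islets, fewer cells of a type and less RNA per cell also cannot be told apart.

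Of the 34 genes, 30 reached a mean of 0.5 CPM over the 5 libraries and were tested with limma among 16939 genes. On the high-fat diet, 7 of the 30 were higher (Mtf1, Slc30a7, Slc39a1, Slc39a7, Slc39a9, Slc39a10 and Slc39a13) at a Benjamini-Hochberg adjusted p below 0.05, against 14.9% of all genes tested. At the same threshold 3 were lower (Mt1, Mt2 and Slc30a1), against 8.78% of all genes. High-fat libraries lay above both chow libraries in 12 of the 30, against 32.8% of all genes, and below both in 5, against 22.5%. The median log2 fold change was 0.14 for the 30 genes and 0.05 for all genes tested. By family, the calls were 1 higher and 1 lower of 8 tested Slc30 genes, 5 higher and 0 lower of 13 tested Slc39 genes, 2 lower of 3 tested metallothioneins, 1 higher of the 2 Mtf genes, and 0 of the 4 copper genes. At an unadjusted p below 0.05 limma gave 3 higher and 1 lower Slc30 genes, and 6 higher and 1 lower (Slc39a8) Slc39 genes. It gave 0 higher and 2 lower metallothioneins, 1 higher and 1 lower Mtf gene, and 2 higher and 0 lower copper genes. No share of all genes was taken at that unadjusted threshold, here or below. The lower calls were stable, at 3 when any 1 high-fat library was left out. An acinar covariate (the mean log2 level of 20 acinar markers, added to the model) also gave 3. The higher calls numbered 5 without high-fat 1, 2 without high-fat 2, 1 without high-fat 3 and 1 with the covariate. Over all genes the calls also fell in these fits, from 2524 higher to 1441, 1167, 1222 and 1150. All lower calls fell from 1487 to 790, 682, 745 and 743. Mt1, Mt2, Slc30a1 and Slc39a7 passed the threshold in all 15 alternative analyses.

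**Figure D1:**
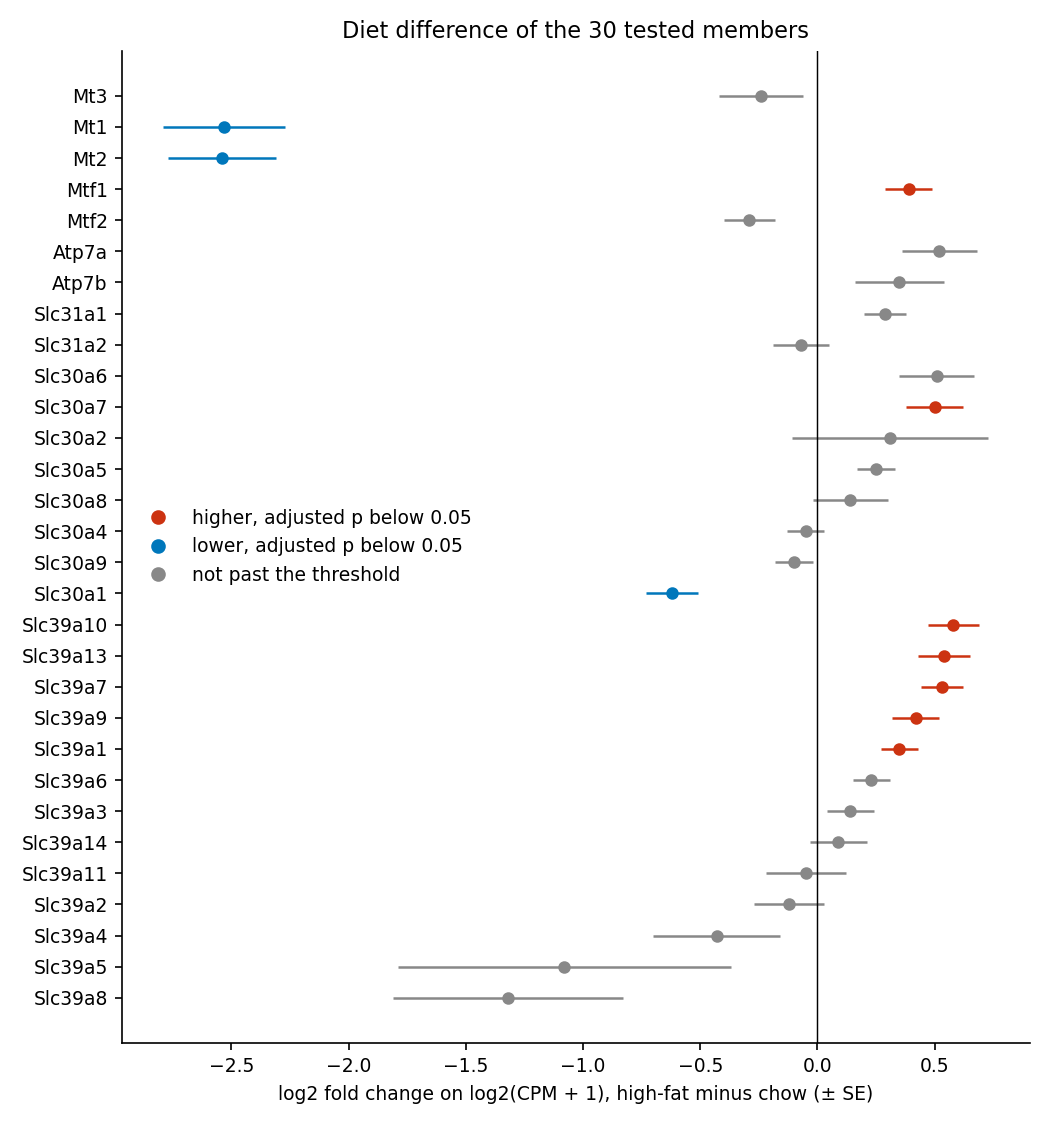
Log2 fold change (high-fat minus chow, on log2(CPM + 1), x axis) of the 30 tested genes (y axis, by family), as points with bars of ± 1 standard error over 2 chow and 3 high-fat libraries, coloured by the limma call. Mt1 and Mt2 stand at -2.53 and -2.54, far to the left of the third lower gene, Slc30a1, at -0.62, while the 7 higher genes lie between 0.35 and 0.58.

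Metallothionein transcripts showed the largest difference of the 34 genes. Mt1 had 416 and 375 CPM in chow 1 and chow 3, compared with 84.1, 44.4 and 81.9 CPM in high-fat 1, 2 and 3. Mt2, which encodes the other ubiquitous metallothionein, was at 307 and 253 CPM in chow, compared with 58.9, 33.5 and 52.7 CPM under high-fat feeding. Both genes were lower in all 3 high-fat libraries than in either chow library, with no overlap, and high-fat 2 was the lowest library for both. Mean levels were 395 ± 29.3 (SD, n = 2) against 70.1 ± 22.3 CPM (SD, n = 3) for Mt1, a 5.64-fold higher level in chow. For Mt2 they were 280 ± 38.6 (SD, n = 2) against 48.4 ± 13.3 CPM (SD, n = 3), a 5.79-fold higher level in chow. The log2 fold changes were -2.53 ± 0.26 (SE, adjusted p = 0.00135) for Mt1 and -2.54 ± 0.23 (SE, adjusted p = 0.000697) for Mt2. With the acinar covariate they were -2.14 (adjusted p = 0.00107) and -2.17 (adjusted p = 0.000143), and over the 15 alternatives the adjusted p stayed at or below 0.0195 for Mt1 and 0.0136 for Mt2.

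The ratio of the 2 genes overlapped between the diets. The log2 ratio of Mt1 to Mt2 was 0.44 and 0.57 in the chow libraries and 0.51, 0.4 and 0.64 in the high-fat libraries. Its mean differed by 0.02 between diets (exact two-sided permutation test, p = 1, also 1 after adjustment over 4 ratios, the smallest p that 2 against 3 libraries allow being 0.2), with SDs of 0.09 and 0.12, and the sign of this difference turned without chow 1 (-0.05) and without high-fat 3 (-0.04). Mt3, the metallothionein best known from brain, was barely detected, at 0.691 and 0.729 CPM in chow, compared with 0.38, 0.713 and 0.298 CPM under high-fat feeding (log2 fold change -0.24 ± 0.18, adjusted p = 0.364). Mt4, which is typical of stratified epithelium, had no reads in 3 libraries and stood at 0.0856 and 0.0425 CPM in high-fat 2 and 3, at or below the level that 3 reads give in a library (0.0856 to 0.16 CPM, which covers counting error only). Markers of stellate cells and fibroblasts moved in the same direction as Mt1 and Mt2: their summed level was 347 and 264 CPM in chow, compared with 150, 175 and 187 CPM in the high-fat libraries, 5 of 8 were lower at the threshold (1 of 8 without chow 1 or without high-fat 2), against 8.78% of all genes tested, and none was at 0 in all libraries. Other cell types also moved this way. Of 8 duct cell markers 3 were lower and 1 higher, and of 8 endothelial markers 2 were lower and 0 higher. Without high-fat 2 the lower ones numbered 0 and 1. All 20 acinar markers had a negative log2 fold change, and 0 were called. The part of any of these cell types, or of stellate cells and fibroblasts, which also express metallothioneins, in the Mt1 and Mt2 result was not tested.

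The 250 bases before the annotated starts of the 3 genes that were lower are shown because Mt1, Mt2 and Slc30a1 are textbook targets of MTF1, and because they show where the metal response element core occurs upstream of each. The core was searched as TGCACNC and TGCGCNC on both strands, and its matches are in capitals. Sequences are from RefSeq on GRCm38.p6, 5′ to 3′ on the gene's own strand (+), with the last base next to the transcription start. The Mt1 window (chr8:94178839-94179088) held 1 match, 23 bases before the start, and the Mt2 window (chr8:94172368-94172617) held 3, at 223, 128 and 50 bases, of which 2 read on the gene's strand. The Slc30a1 window (chr1:191906531-191906780) held 1 match, on the opposite strand, 43 bases before the start.
Mt1: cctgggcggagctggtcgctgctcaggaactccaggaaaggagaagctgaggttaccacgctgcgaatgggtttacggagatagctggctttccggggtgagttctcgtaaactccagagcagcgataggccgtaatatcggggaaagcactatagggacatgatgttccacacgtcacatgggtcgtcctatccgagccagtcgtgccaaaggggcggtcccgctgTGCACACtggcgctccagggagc
Mt2: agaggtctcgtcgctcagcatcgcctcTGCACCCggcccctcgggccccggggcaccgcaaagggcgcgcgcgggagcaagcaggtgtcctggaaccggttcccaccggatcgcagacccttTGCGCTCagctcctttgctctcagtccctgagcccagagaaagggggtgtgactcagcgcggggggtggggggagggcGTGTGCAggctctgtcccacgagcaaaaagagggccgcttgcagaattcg
Slc30a1: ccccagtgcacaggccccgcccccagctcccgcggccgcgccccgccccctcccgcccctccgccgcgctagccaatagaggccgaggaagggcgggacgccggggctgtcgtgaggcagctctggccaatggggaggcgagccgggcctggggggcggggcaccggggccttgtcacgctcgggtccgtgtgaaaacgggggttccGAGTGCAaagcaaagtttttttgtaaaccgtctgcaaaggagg
Annotated starts differ for these genes, so each window covers only part of the sequence around the starts. GENCODE M21 also has starts 122 and 152 bases after the RefSeq start of Mt1, 46 and 242 bases after that of Mt2 and 475 bases after that of Slc30a1. The 50 bases after the RefSeq start, not shown, added 2 matches for Mt1, 1 for Mt2 and 1 for Slc30a1. A match of 7 bases is a description of the letters and not a site, and 21.4% of 32851 such windows held at least 1 match and 1.26% at least 3. Windows were found for 30 of the 34 genes, 36 in all, and 18 of the 36 held a match, belonging to 17 genes. The windows of Mtf1, Slc30a7, Slc39a1, Slc39a7, Slc39a9, Slc39a10 and Slc39a13, the genes that were higher on the high-fat diet, held none. Genes that gave no call also had matches, such as Atp7a (2), Slc30a2 (2), Slc30a4 (2) and Slc30a5 (1). Most windows of all genes held no match, and a link between matches and the direction of a difference was not tested.

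Slc30a1 encodes ZnT1, the zinc exporter of the plasma membrane, and it was the third gene that was lower. Its level was 40.3 and 46.7 CPM in chow, compared with 30.6, 26.5 and 26.5 CPM under high-fat feeding, with no overlap. The means of 43.5 ± 4.51 (SD, n = 2) and 27.8 ± 2.37 CPM (SD, n = 3) differed 1.56-fold, a far smaller step than that of the metallothioneins. The log2 fold change was -0.62 ± 0.11 (adjusted p = 0.00866), and it lay between -0.73 and -0.52 with an adjusted p of at most 0.0428 in the 15 alternatives. The exons of Slc30a1 overlap those of an antisense gene, 1700034H15Rik, which stood at 0.602 to 1.02 CPM, and the sources used here do not say whether reads were counted by strand.

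Mtf1, the zinc-sensing factor itself, was measured at 31.8 and 38.3 CPM in chow, compared with 45.2, 45.3 and 47.1 CPM under high-fat feeding. All 3 high-fat libraries lay above both chow libraries, in the opposite direction to Mt1, Mt2 and Slc30a1. The difference was 0.39 ± 0.10 on the log2 scale (adjusted p = 0.0319), a mean of 45.9 ± 1.09 (SD, n = 3) against 35 ± 4.6 CPM (SD, n = 2). The call passed in 7 of 15 alternatives, the fewest of the 10 called genes, and was lost without chow 1 (0.25, adjusted p = 0.103), without high-fat 1 (adjusted p = 0.0824), high-fat 2 (0.0908) or high-fat 3 (0.101), and with the acinar covariate (0.134). An antisense gene that overlaps its exons, 1110065P20Rik, was also higher in the high-fat libraries (8.2 and 8.7 against 15, 13.1 and 11.4 CPM). Mtf2 is, despite its similar name, known as a Polycomb-associated chromatin protein. It was at 11.7 and 10.8 CPM in chow, compared with 9.06, 9.04 and 8.81 CPM under high-fat feeding, and its log2 fold change of -0.29 ± 0.11 did not pass (adjusted p = 0.087).

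**Figure D2:**
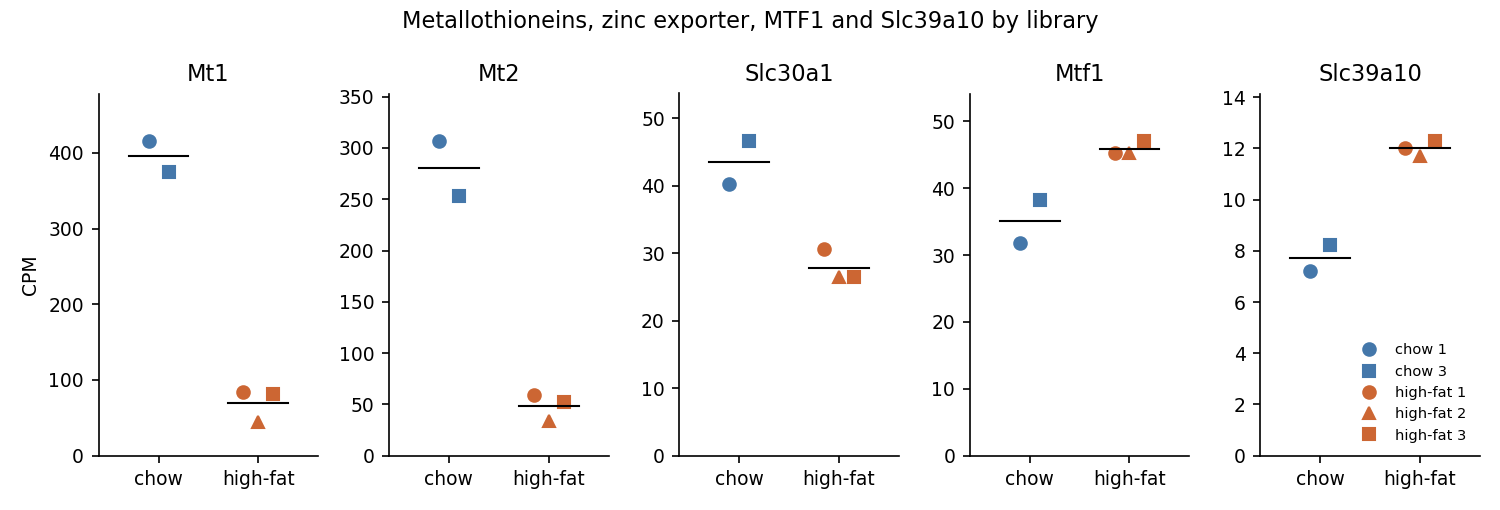
CPM (y axes from 0, each panel with its own scale) of Mt1, Mt2, Slc30a1, Mtf1 and Slc39a10 in the 5 libraries by diet, as points, with a horizontal line at the mean of each diet. In every panel the chow and high-fat libraries are separate, with Mt1, Mt2 and Slc30a1 lower and Mtf1 and Slc39a10 higher on the high-fat diet.

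Slc30a8 encodes ZnT8, the transporter that loads zinc into insulin granules, and its level per length of exon was the highest of the 24 Slc30 and Slc39 genes. Its level was 373 and 509 CPM in chow 1 and chow 3, compared with 472, 482 and 483 CPM in high-fat 1, 2 and 3. The high-fat values fell within the range of the chow values, and chow 1, the library with the largest acinar share, was the lowest. The log2 fold change of 0.14 ± 0.16 did not pass (adjusted p = 0.555), and without chow 1 it was -0.09 (adjusted p = 0.658). Because the share of beta cell RNA differed between libraries, Slc30a8 was also set against other beta cell transcripts of the same library.

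Relative to insulin transcripts, Slc30a8 was lower in every high-fat library. The log2 ratio of Slc30a8 to the sum of Ins1 and Ins2 was -6.96 and -6.99 in chow and -7.24, -7.33 and -7.18 on the high-fat diet. The mean fell by 0.28 with SDs of 0.03 and 0.08, and the groups did not overlap (exact two-sided permutation test, p = 0.2, 0.4 adjusted over 4 ratios, with 0.2 the smallest p the design allows). Relative to the mean of the beta cell genes Pdx1, Mafa, Nkx6-1, Slc2a2, G6pc2 and Iapp, the log2 ratio was 0.04 and -0.01 in chow and -0.25, -0.3 and -0.32 on the high-fat diet, a difference of -0.30 with SDs of 0.04 and 0.04 (exact two-sided permutation test, p = 0.2, adjusted 0.4). Neither ratio could pass the threshold in a design of this size. The sizes ran from -0.31 to -0.24 and from -0.33 to -0.28 when any 1 library was left out. The direction depended on the reference gene. Slc30a8 was below Slc2a2, a gene of that mean, in both chow libraries and above it in every high-fat library. Slc2a2 itself had a log2 fold change of -0.24 (limma, adjusted p = 0.328). The other genes of the mean had positive log2 fold changes, from 0.36 for Iapp to 0.98 for G6pc2. The references themselves were not constant: of 10 beta cell markers, 5 were higher on the high-fat diet (1 without chow 1 or any 1 high-fat library), and the list's summed level was 57374 and 79743 CPM in chow against 87565, 95412 and 87346 CPM.

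**Figure D3:**
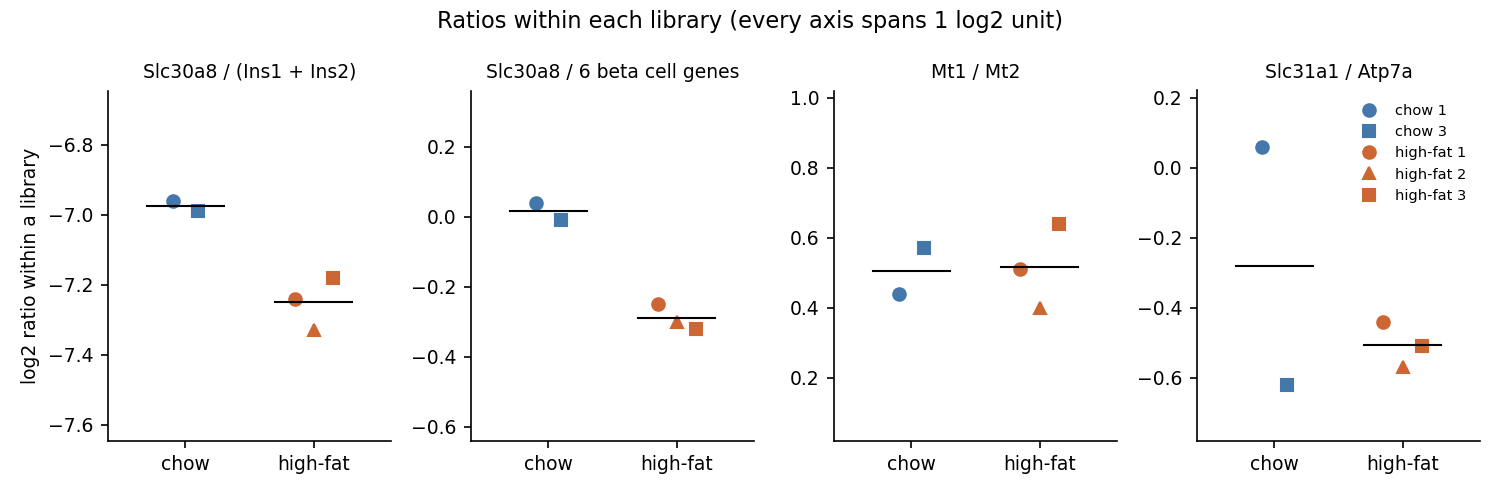
Log2 ratio of 2 expression levels within each library (y axes, each spanning 1 log2 unit) by diet, for Slc30a8 to Ins1 plus Ins2, Slc30a8 to the mean of 6 beta cell genes, Mt1 to Mt2, and Slc31a1 to Atp7a, with points for the 5 libraries and a line at each diet's mean. The diets are separate for both Slc30a8 ratios, with means 0.28 and 0.30 lower on the high-fat diet on the left and second panels, and overlap for the others.

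Zinc transporters of the early secretory pathway, ZnT5 and ZnT6, which work as a pair, and ZnT7 of the Golgi, had levels in the high-fat libraries above both chow libraries, as had 32.8% of all genes tested. These 3 genes were grouped here by their known role, and 1 of them, Slc30a7, passed. They are also the only 3 of the 8 tested Slc30 genes with this separation, so the group coincides with the outcome. Slc30a7 was at 42.3 and 52.8 CPM in chow, compared with 61.9, 70.9 and 69.8 CPM under high-fat feeding (0.50 ± 0.12, adjusted p = 0.0239). That call passed in 9 of 15 alternatives and was lost without chow 1 (0.35, adjusted p = 0.0839), without high-fat 2 (0.0838), without high-fat 3 (0.0806) and with the acinar covariate (0.092). Slc30a5 was at 48.8 and 55 CPM in chow, compared with 62.8, 60.8 and 61.7 CPM under high-fat feeding, and its log2 fold change of 0.25 ± 0.08 did not pass (adjusted p = 0.0712). It was 0.33 without chow 3, where it passed (adjusted p = 0.0299), and 0.16 without chow 1 (adjusted p = 0.229). Slc30a6, the partner of Slc30a5, was at 5.37 and 5.02 CPM in chow, compared with 6.58, 7.89 and 9.28 CPM under high-fat feeding, with a log2 fold change of 0.51 ± 0.16 (adjusted p = 0.0558). Without high-fat 1 it passed narrowly (0.63, adjusted p = 0.0498). The log2 fold change was of similar size in Slc30a6 and Slc30a7 and smaller in Slc30a5.

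The remaining Slc30 genes gave no call. Slc30a4, found in endosomal and lysosomal vesicles, was at 43 and 39.1 CPM in chow, compared with 39.6, 40.3 and 38.9 CPM under high-fat feeding (-0.05 ± 0.08, adjusted p = 0.684). Slc30a9, the exporter of zinc from mitochondria, was at 57.5 and 63.7 CPM against 54.4, 58.3 and 55.9 CPM (-0.10 ± 0.08, adjusted p = 0.394). Both genes had nearly the same level in all 5 libraries. Slc30a2, a vesicular transporter, was uneven within the chow diet, with 2.66 CPM in chow 1 and 0.365 CPM in chow 3 against 2.38, 1.04 and 2.07 CPM under high-fat feeding (0.31 ± 0.42, adjusted p = 0.622). Its log2 fold change was 1.02 without chow 1 and -0.40 without chow 3. Slc30a3, known from synaptic vesicles, was at 0.268 to 0.507 CPM and Slc30a10, known mainly as a manganese exporter, at 0.0863 (under the 3-read level) to 1 CPM, and neither reached the mean level required for a test.

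Among the importers, 5 Slc39 genes were higher on the high-fat diet, and the one with the smallest adjusted p was Slc39a7, the ZIP7 protein that releases zinc from the endoplasmic reticulum. It was at 97.5 and 90.7 CPM in chow, compared with 142, 141 and 125 CPM under high-fat feeding, a 1.45-fold higher mean (0.53 ± 0.09, adjusted p = 0.00997). The groups did not overlap, and the adjusted p was at most 0.048 in the 15 alternatives. Of the 31-base words in Slc39a7 transcripts, 76.8% also occur in other genes. A second annotated gene on the same strand, Gm20427, shares exon bases with Slc39a7. Gm20427 had 8.32 and 9.18 CPM in chow, compared with 12.2, 12.7 and 11.3 CPM under high-fat feeding. Reads of this pair cannot be assigned to one or the other with certainty. Both names moved the same way, but because they share exon bases this is no separate check of the Slc39a7 call.

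Slc39a10, the plasma membrane importer that MTF1 is known to repress, was at 7.23 and 8.22 CPM in chow, compared with 12, 11.7 and 12.3 CPM under high-fat feeding. It had the largest log2 fold change of the 7 higher genes, 0.58 ± 0.11 (adjusted p = 0.013), with a 1.55-fold higher mean and a gap between the diets wider than the spread within either. The call passed in 12 of 15 alternatives. It was narrowly lost without chow 1 (0.50, adjusted p = 0.0539), without high-fat 3 (0.56, 0.0519) and with the acinar covariate (0.56, 0.0571). Its partner in a heteromeric complex, Slc39a6, was at 29.2 and 31.3 CPM in chow, compared with 35, 34.7 and 37.5 CPM under high-fat feeding, and its log2 fold change of 0.23 ± 0.08 did not pass (adjusted p = 0.0861).

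Slc39a13 and Slc39a9, importers of the Golgi and of secretory vesicles, were also higher. Slc39a13, whose loss causes a connective tissue disorder, was at 13.2 and 15.8 CPM in chow, compared with 20.1, 22.6 and 21.7 CPM under high-fat feeding (0.54 ± 0.11, adjusted p = 0.0162). Its call was lost without chow 1 (0.42, adjusted p = 0.063), without high-fat 2 (0.0642), without high-fat 3 (0.0589) and with the acinar covariate (0.0753), and held in 10 of 15 alternatives. Slc39a9 was at 75.8 and 90.7 CPM in chow, compared with 109, 110 and 115 CPM under high-fat feeding (0.42 ± 0.10, adjusted p = 0.0249). It held in 8 of 15 alternatives and was lost without chow 1 (0.29, adjusted p = 0.0734), high-fat 1 (0.0695), high-fat 2 (0.0778) or high-fat 3 (0.0865), and with the acinar covariate (0.0987). In both genes, as in Slc30a7 and Mtf1, chow 1 was the lowest of the 5 libraries, and of the analyses without 1 library, that without chow 1 gave the smallest fold change.

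Slc39a1, a widely expressed importer of the plasma membrane, was at 28 and 26.2 CPM in chow, compared with 33.9, 35.8 and 34.4 CPM under high-fat feeding (0.35 ± 0.08, adjusted p = 0.0243). Unlike Slc39a13 and Slc39a9 it was slightly higher in chow 1 than in chow 3. The call held in 8 of 15 alternatives and was lost without chow 3 (0.30, adjusted p = 0.0538), high-fat 1 (0.36, 0.066), high-fat 2 (0.32, 0.0906) or high-fat 3 (0.35, 0.0759), and with the acinar covariate (0.34, 0.101), while the fold change hardly moved. Of its 31-base words, 27.7% occur in other genes. A processed copy of the gene, Slc39a1-ps, stood at 0.471 to 1.33 CPM. Of the 10 beta cell markers, 9 had a positive log2 fold change, 1 (Slc2a2, -0.24) a negative one, and 5 passed, against 14.9% of all genes. As a share of the summed CPM, insulin transcripts overlapped between the diets. They made up 5.5% and 9.62% in chow 1 and chow 3 and 7.41%, 9.34% and 7.99% in high-fat 1, 2 and 3. The part of beta cell content in the higher calls was not tested. With the acinar covariate 1 of the 7 calls, Slc39a7, was kept. The log2 fold changes with it were 0.55 for Slc39a7, 0.56 for Slc39a10, 0.43 for Slc39a13, 0.37 for Slc39a9, 0.37 for Slc30a7, 0.34 for Slc39a1 and 0.33 for Mtf1, close to those without it in Slc39a7, Slc39a10 and Slc39a1.

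Slc39a5 and Slc39a8 varied within each diet in the order of the exocrine share of the library. Slc39a5, which sits on the basolateral membrane of pancreatic acinar cells and enterocytes, was at 32.1 and 10.4 CPM in chow 1 and chow 3 and at 20.8, 3.1 and 7.69 CPM in high-fat 1, 2 and 3. Slc39a8, a carrier of zinc and manganese, was at 9.46 and 2.96 CPM in chow, compared with 3.08, 0.628 and 1.58 CPM under high-fat feeding. Both genes ranked the 5 libraries in the same order as the acinar share (chow 1, high-fat 1, chow 3, high-fat 3, high-fat 2), which crosses the diets. All 20 acinar markers were tested, all had a negative log2 fold change and none passed the threshold in limma (2 lower at an unadjusted p below 0.05). The log2 fold change of Slc39a5 was -1.08 ± 0.71 (adjusted p = 0.302), and with the acinar covariate it was 0.17 (adjusted p = 0.553). It ran from -1.85 without chow 3 to -0.31 without chow 1, and was -1.70 without high-fat 1 and -0.49 without high-fat 2. For Slc39a8 it was -1.32 ± 0.49 (adjusted p = 0.0935) and with the covariate -0.52 (adjusted p = 0.232). It passed without chow 3 (-2.02, adjusted p = 0.0277) and was -0.62 without chow 1 (adjusted p = 0.434). Slc39a4, the importer of dietary zinc in the intestine, was highest in chow 1 and lowest in high-fat 2 as well, at 1.54 and 0.528 CPM in chow, compared with 0.63, 0.172 and 0.639 CPM under high-fat feeding (-0.43 ± 0.27, adjusted p = 0.275). These rank orders rest on 5 libraries and were not tested.

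**Figure D4:**
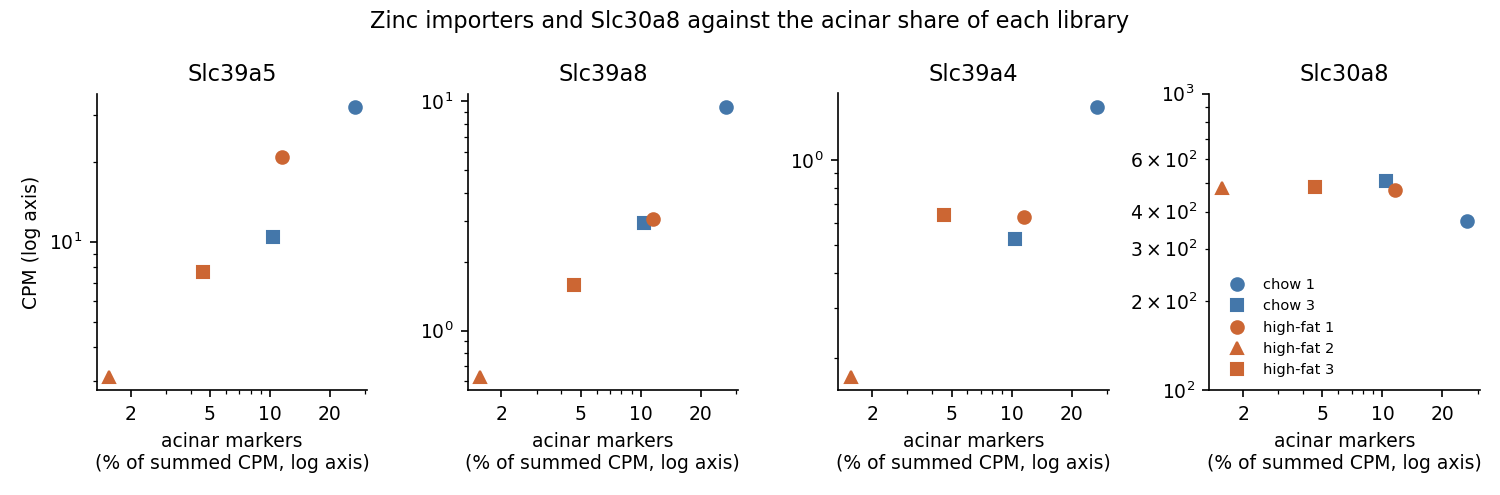
CPM (y axes, log scale) of Slc39a5, Slc39a8, Slc39a4 and Slc30a8 against the share of the summed CPM taken by 20 acinar markers (x axes, percent, log scale), 1 point per library, coloured by diet. Slc39a5 and Slc39a8 climb with the acinar share from high-fat 2 at 1.56% to chow 1 at 26.7%, whichever diet the library belongs to, whereas Slc30a8 is lowest in chow 1.

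No call was made for the other importers. Slc39a3, at the plasma membrane, was at 24 and 28.9 CPM in chow, compared with 30.6, 28.7 and 28.2 CPM under high-fat feeding (0.14 ± 0.10, adjusted p = 0.359). Slc39a14, which carries zinc, manganese and iron, was at 26.1 and 28 CPM against 33.1, 27.6 and 26.3 CPM (0.09 ± 0.12, adjusted p = 0.599). Slc39a11 was at 14.4 and 9.8 CPM against 12.7, 11.4 and 10.3 CPM (-0.05 ± 0.17, adjusted p = 0.849). In all 3 genes the diets overlapped. Slc39a2 ranged from 0.542 to 0.748 CPM, with all 3 high-fat libraries below both chow libraries (adjusted p = 0.592), and Slc39a12, known from brain, ranged from 0.253 to 0.365 CPM and was not tested.

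None of the 4 copper transport genes passed the threshold, and 2 were higher in every high-fat library than in either chow library, as were 32.8% of all genes tested. Slc31a1, the copper importer, was at 22.6 and 21.1 CPM in chow, compared with 27, 25.9 and 28.3 CPM under high-fat feeding, and its log2 fold change of 0.29 ± 0.09 fell just short (adjusted p = 0.0509). It passed with the filter at 1 CPM (adjusted p = 0.0489), which left fewer genes to adjust for. Atp7a, the copper pump, was at 21.7 and 32.4 CPM in chow, compared with 36.7, 38.5 and 40.5 CPM under high-fat feeding (0.52 ± 0.16, adjusted p = 0.0533), and the 2 chow libraries differed more than the 3 high-fat libraries did. Its log2 fold change was 0.80 without chow 3 (adjusted p = 0.00389) and 0.24 without chow 1. Slc31a2, a relative of the importer found mainly in intracellular vesicles, was at 17.4 and 14.6 CPM against 15.9, 16 and 13.5 CPM (-0.07 ± 0.12, adjusted p = 0.691). Atp7b, the second pump, was at 2.5 and 1.58 CPM against 2.87, 3.23 and 2.43 CPM (0.35 ± 0.19, adjusted p = 0.223), and its log2 fold change was 0.57 without chow 1 and 0.13 without chow 3. The log2 ratio of importer to exporter, Slc31a1 to Atp7a, was 0.06 and -0.62 in chow and -0.44, -0.57 and -0.51 on the high-fat diet. The diets overlapped in this ratio (difference -0.23, exact two-sided permutation test, p = 0.8, adjusted p = 1), and without chow 1 the difference was 0.10.

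Compared per length of merged exons, Mt2 and Slc30a8 were the most abundant of the 34 transcripts, with means over the 5 libraries of 240 and 235 CPM per kilobase. Mt1 followed at 161 and Slc39a7 at 46.2 CPM per kilobase. The order of the first genes changed with the diet: in chow, Mt2 and Mt1 stood at 476 and 317 CPM per kilobase, above Slc30a8 at 224, whereas on the high-fat diet Slc30a8 led at 243, with Mt2 at 82.3 and Mt1 at 56.3 CPM per kilobase. Below them came Slc39a1 at 13.4 and Slc39a9 at 9.86 CPM per kilobase as means over the 5 libraries. The plasma membrane exporter Slc30a1 had 6.5, the copper importer Slc31a1 5.84 and Atp7a 3.89 CPM per kilobase. Over the 33 genes with reads in all libraries, the ranges of neighbours in this order overlapped in 30 of 32 pairs. The 2 exceptions were the steps from Slc39a7 down to Slc39a1 and from Slc39a10 down to Mt3. Merged exon lengths are from GENCODE M21 and overstate the length of genes with many annotated ends, such as Slc30a9. Mt1 had more CPM than Mt2 in every library (means 200 and 141 CPM). It stands below Mt2 per kilobase because its merged exons span 1246 bases, against 588 for Mt2, so the order of this pair rests on the annotation.

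**Figure D5:**
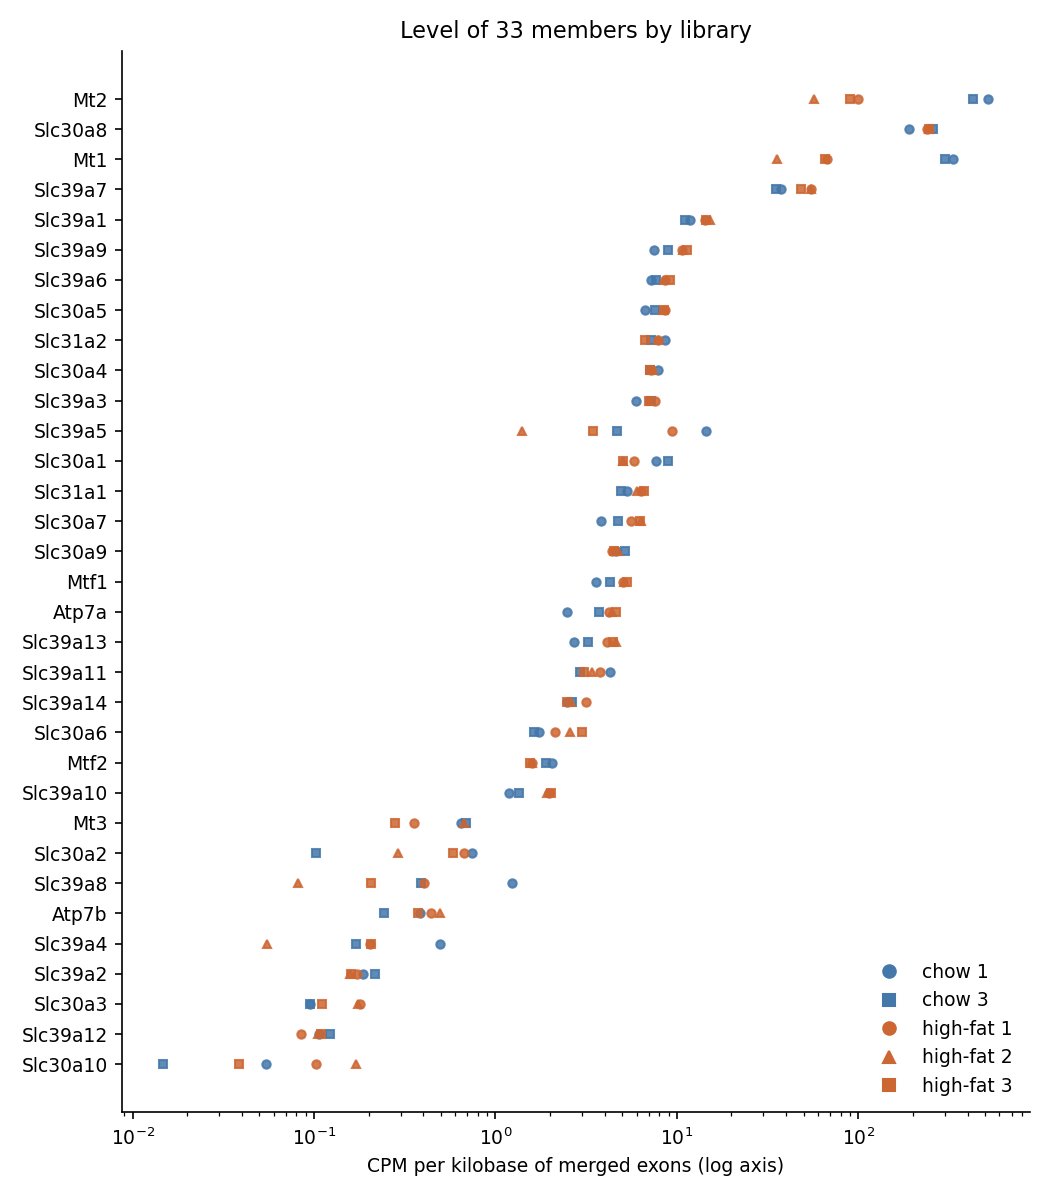
Level of 33 genes in CPM per kilobase of merged exons (x axis, log scale; genes in order of their mean on the y axis) with 1 point per library, coloured by diet. Mt4 is left out because it is listed at 0 in 3 libraries, and the metallothioneins Mt2 and Mt1 are the abundant genes in which the diets are far apart.

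Other genes of metal handling were counted from lists in the same fit. The list of zinc sensing, zinc-permeable channels and other zinc carriers had 7 tested genes. Of these, 2 were higher and 0 lower, against 14.9% and 8.78% of all genes tested. At an unadjusted p below 0.05 limma gave 3 higher and 1 lower, with no share of all genes taken at that threshold. Tmem163, a vesicular zinc efflux protein, was at 42.6 and 49.5 CPM in chow, compared with 75, 76.3 and 77.4 CPM under high-fat feeding (0.72 ± 0.09, adjusted p = 0.00277). Trpm3, a zinc-permeable channel of the beta cell, was at 8.88 and 14.7 CPM against 23.8, 22.8 and 22.7 CPM (0.95 ± 0.18, adjusted p = 0.0133). The diets were far apart for both, and both calls were kept when any 1 library was left out. With the acinar covariate the adjusted p of Trpm3 was 0.0564.

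Of 21 tested copper chaperones and copper enzymes, 3 were higher (14.3%, against 14.9% of all genes tested) and 4 lower (19%, against 8.78%). Pam, the copper enzyme that amidates peptide hormones in secretory granules, was at 405 and 438 CPM in chow, compared with 972, 1211 and 1049 CPM under high-fat feeding (1.35 ± 0.16, adjusted p = 0.00241). Cox17, which delivers copper to cytochrome c oxidase in mitochondria, went the other way, from 23.9 and 24 CPM to 12.4, 12.3 and 13.4 CPM (-0.87 ± 0.09, adjusted p = 0.00145). Loxl2, a copper-dependent oxidase that cross-links collagen, was at 23.7 and 29.9 CPM against 42.7, 44.2 and 43.5 CPM (0.69 ± 0.11, adjusted p = 0.00669). These 3 calls held in all 15 alternatives. Cp, the copper-carrying ferroxidase ceruloplasmin, was at 35.3 and 10.7 CPM in chow, compared with 3.57, 3.57 and 4.49 CPM under high-fat feeding (-2.09 ± 0.42, adjusted p = 0.0153). The Cp call was lost without high-fat 2 (adjusted p = 0.0539), with the acinar covariate (0.0587) and with no filter (0.079). Without high-fat 2 the list had 2 genes higher and 1 lower. Without chow 1 or high-fat 1 it had 2 higher and 2 lower.

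Of 13 tested iron and manganese carriers, 1 was higher and 3 lower, against 14.9% and 8.78% of all genes tested. Tfrc, the transferrin receptor, was at 53 and 46.6 CPM in chow, compared with 29, 29.1 and 23.8 CPM under high-fat feeding (-0.84 ± 0.12, adjusted p = 0.00406). Fth1, the ferritin heavy chain that stores iron, was at 282 and 267 CPM against 187, 169 and 183 CPM (-0.61 ± 0.10, adjusted p = 0.00645). Both were lower in all 15 alternatives. The higher call in this list was lost without chow 3 and without each of the 3 high-fat libraries, and the lower calls numbered 2 without any of these libraries.

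Metallothioneins also respond to oxidative stress and to glucocorticoids, and both programmes were counted. Of 17 tested genes of the metal and oxidative stress response, 2 were higher (11.8%, against 14.9% of all genes tested) and 3 lower (17.6%, against 8.78%). Srxn1, which repairs oxidised peroxiredoxins, was at 22.8 and 23.8 CPM in chow, compared with 34.8, 35.8 and 34.6 CPM under high-fat feeding (0.57 ± 0.08, adjusted p = 0.00393), a call kept in all 15 alternatives. Among the lower genes, Gclm was at 61.6 and 57.2 CPM against 45.5, 43.2 and 44.7 CPM (-0.41 ± 0.08, adjusted p = 0.0131). Dusp1 was at 29.3 and 17.2 CPM against 10.6, 12.2 and 13.1 CPM (-0.87 ± 0.21, adjusted p = 0.0286). The Gclm call held in 12 of 15 alternatives and that of Dusp1 in 9. Hmox1, an inducible target of oxidative and heavy-metal stress, was at 3.15 and 3.04 CPM in chow, compared with 3.38, 2.8 and 4.13 CPM under high-fat feeding (adjusted p = 0.69). Hmox1 falls outside the rule for named genes and was chosen after its values were seen. Without high-fat 2 or high-fat 3 the list had 1 gene higher and 0 lower, without high-fat 1 it had 1 and 1, and without chow 3 it had 4 and 2. Of 11 tested glucocorticoid response genes, 2 were higher and 2 lower (18.2% each, against the same background), and when a high-fat library was left out at most 1 was called.

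The list of insulin granule cargo and processing had 18 tested genes, and not all of them encode granule proteins. Ero1lb and G6pc2, for example, belong to the endoplasmic reticulum. Of the 18, 4 were higher and 0 lower, against 14.9% and 8.78% of all genes tested. At an unadjusted p below 0.05 limma gave 5 higher and 1 lower, with no share of all genes taken at that threshold. High-fat levels lay above both chow libraries in 13 of the 18, against 32.8% of all genes. Ptprn, a granule membrane protein, was at 200 and 221 CPM in chow, compared with 306, 344 and 359 CPM under high-fat feeding (0.67 ± 0.12, adjusted p = 0.0089), and it was called in all 15 alternatives. The other 3 calls, Ero1lb, Pcsk1 and G6pc2, were each lost when any 1 high-fat library was left out, with adjusted p-values of 0.0604 to 0.067, 0.0814 to 0.0856 and 0.0965 to 0.123, and the list then had 1 gene higher. Without chow 1 it had 2 higher and 1 lower.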

How the data were processed

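RNA was extracted from isolated islets, per the labels' protocols, and Partek was the processing tool, per the submitters' processing notes. Aligner, genome build, annotation and strand setting were not given in the sources used here. In 1 table of 6 columns the authors deposited values with no stated unit. Its lowest value was 1, and in 5 columns low values lay on regular steps, so the deposited values were taken as CPM plus 1 and 1 was subtracted. The step gave each library's implied reads.

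Diets were compared by limma (3.58.1, R 4.3.3) using log2(CPM + 1), a variance prior with a trend, a minimum mean of 0.5 CPM and Benjamini-Hochberg adjustment over the 16939 genes tested. This scale understates fold changes of low genes. Ratios within libraries were compared by exact permutation tests. The labels name no separate animals. The p-values hence cover only sample-to-sample spread, possibly technical.

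Members at a mean of 1 CPM or more, or past the threshold, are given with every value. Of each other list at most the 4 genes with the smallest p are named. Members and lists were chosen with earlier results of these data known. Exon lengths, overlaps and shared words rest on GENCODE M21, not necessarily the annotation the authors used. The model was tested on simulated data.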

Additional observations from a re-analysis of the deposited data

How the results depend on the processing

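All 15 alternative analyses were other scalings, added constants, filters, a covariate, another variance prior, all 6 columns, and leaving out each library. When a chow library was left out, the lone chow sample was assumed to vary like the high-fat samples. The genes that were higher numbered 2 with no filter, 1 with the acinar covariate, 3 with no trend in the variance prior and 12 with all 6 columns, and ran from 1 to 8 when 1 library was left out. The genes that were lower numbered 5 with all 6 columns and 3 to 4 when 1 library was left out. With all 6 columns, chow 2 counts chow 1 and chow 3 again, so a pass in that fit, which the tallies of 15 include, rests on no added sample. Over all genes, the calls split into 62.9% higher as reported, 50.5% with median-ratio scaling and 54.5% with trimmed mean of M values scaling. All genes called numbered 1080 higher and 573 lower with no filter, 1150 and 743 with the acinar covariate, and 4224 and 2828 with all 6 columns. None of the 10 called genes changed sign.

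Leaving out 1 library moved the Mt1 to Mt2 difference between -0.050 and 0.081 and the Slc31a1 to Atp7a difference between -0.57 and 0.10. Log2 fold changes that were not called and turned sign ran from -0.40 to 1.02 for Slc30a2, from -0.12 to 0.018 for Slc30a4, from -0.087 to 0.36 for Slc30a8, from -0.20 to 0.047 for Slc31a2, from -0.31 to 0.20 for Slc39a11 and from -0.0063 to 0.15 for Slc39a14. With the acinar covariate, Slc39a11 was at 0.11 and Slc39a5 at 0.17. The cause of these shifts was not tested. No paired analysis was possible because the labels give the diets no shared replicate numbers. Members below about 0.5 CPM rest on few reads, and 2 chow libraries give no independent check of the chow spread.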
